A study of Mus musculus with 8 samples.

Results

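Classical cadherins and neural cell adhesion molecules join the membranes of neighbouring cells, and 7 of their genes were followed here in nuclei of hippocampal place cells. They were Cdh2, Cdh8, Cdh10, Cdh13, Cdh24, Ncam1 and Ncam2, taken by symbol from the 15519 genes of the deposited table. The libraries were 4 of Recurring place cells and 4 of Day 0 place cells from the hippocampus of mice labelled wild type. Place cells are neurons that fire at particular places, and these were recognised by imaging in living mice during navigation before their nuclei were phototagged, collected and made into SMART-Seq libraries of nuclear RNA. The labels do not define Recurring and Day 0 further. All 8 libraries share the wild-type genotype and the pyramidal cell label, each title gives a mouse number of its own, and age, sex and batch were not given in the sources used here.

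Cadherins bind one another across the cell gap in the presence of calcium, and their cytoplasmic tails hold catenins, which link them to actin. Cdh2, or N-cadherin, is the type I cadherin of synaptic junctions, while Cdh8, Cdh10 and Cdh24 belong to the type II group. Cdh13, or T-cadherin, is anchored by a lipid and has no cytoplasmic tail, so that it is often set apart from the classical group. Ncam1 encodes an immunoglobulin-superfamily adhesion molecule that carries polysialic acid and takes part in neurite growth and synaptic plasticity. Ncam2, or OCAM, is its closest relative and is best known from olfactory axons.

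Ncam1 was the most abundant of the 7 genes in all 8 libraries, and its level in Recurring and Day 0 cells differed by less than the spread between libraries. Cdh2 had fewer normalized counts in each Recurring library than in Day 0 replicates 1 to 3, while Day 0 replicate 4 was as low as the Recurring libraries. Cdh10 and Ncam2 had higher mean log2 levels in Recurring cells, and both differences were under a log2 of 1 without Day 0 replicate 4. None of the 7 genes passed the test, and in none did the Recurring and Day 0 libraries separate without overlap.

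The deposited values were turned back into whole reads, 8374986 to 14887866 per library, with 10718 to 13807 genes detected. A normalized count below is a gene's reads divided by the size factor of the library, which ranged from 0.837 to 1.61. Day 0 replicate 4 had the fewest genes detected and the lowest mean log2 level of 10 CA1 pyramidal markers, 8.96, where Recurring libraries had 9.65 to 10.70 and the other Day 0 libraries 9.78 to 10.71. It also held 3 of the 7 adhesion genes at 0, more than any other library, so the differences of the 7 genes are also given without it. High Xist reads, a sign of female tissue, were found in 2 Recurring and 2 Day 0 libraries.

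The labelled cell type was checked against its markers. Slc17a7, which loads glutamate into synaptic vesicles, averaged a log2 level of 10.98 ± 0.73 in Recurring and 11.31 ± 0.61 in Day 0 libraries (SD, n = 4 each). Zbtb20, a transcription factor of CA1 pyramidal identity, averaged 14.33 ± 0.56 in Recurring and 13.99 ± 0.55 in Day 0 libraries, and Wfs1, a marker of dorsal CA1, 9.81 ± 0.33 in Recurring and 9.47 ± 1.30 in Day 0 libraries (SD, n = 4 each). All 3 were present in all 8 libraries.

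Levels of the 7 genes were ordered per kilobase of exon, since they differ in length. Ncam1 averaged 704 ± 198 normalized counts per kilobase (SD, n = 8), with a range of 374 to 991. Cdh10 followed with 115 ± 63.8, Cdh8 with 85.6 ± 70.01 and Cdh2 with 44.4 ± 31.9. Ncam1 did not overlap with Cdh10, whose highest library stood at 234, whereas each later neighbour in the order overlapped with the one before it. Ncam2 had 18.1 ± 20.5, Cdh24 10.4 ± 19.5 and Cdh13 7.94 ± 10.04 normalized counts per kilobase, which do not differ beyond their spread. Cdh10 exceeded Cdh8 in 5 of 8 libraries, Cdh8 exceeded Cdh2 in 5, and Cdh2 exceeded Ncam2 in 7. By mean log2 level without length, Ncam1 ranked 125 of the 11078 genes tested, while Cdh10 stood 19.3% from the top, Cdh8 29.8%, Cdh2 39.4%, Ncam2 63.2%, Cdh13 90.9% and Cdh24 99.1%.

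**Figure D1:**
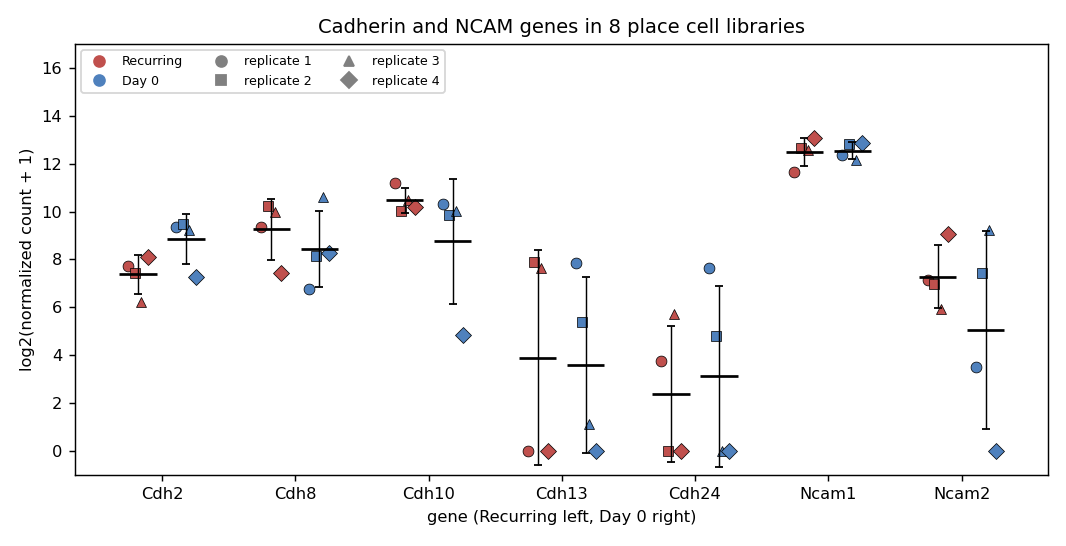
Level of the 7 adhesion genes in each library, as log2 of the normalized count plus 1, with Recurring libraries in red and Day 0 libraries in blue. Bars mark the group mean and SD (n = 4), marker shapes give the replicate number within a group and pair no libraries, and Ncam1 stands above every other gene while Cdh13, Cdh24 and Ncam2 reach 0 in at least 1 library.

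Ncam1, the carrier of polysialic acid, was steady by comparison with the other 6 genes. It had 3243, 6451, 6093 and 8585 normalized counts in Recurring replicates 1 to 4, against 5207, 7166, 4596 and 7468 in Day 0 replicates 1 to 4. Recurring replicate 1 was the lowest and Recurring replicate 4 the highest of the 8 libraries, with all Day 0 libraries between them. The means were 6093 ± 2196 in Recurring and 6109 ± 1422 in Day 0 libraries (SD, n = 4 each). On the log2 scale the difference, Recurring minus Day 0, was -0.057 with a standard error of 0.34, and the 95% interval in linear terms ran from 0.581-fold to 1.59-fold (limma, adjusted p = 0.998). Its sign turned with 1 library, to 0.20 without Recurring replicate 1, 0.032 without Day 0 replicate 2 and 0.052 without Day 0 replicate 4. The antisense gene Gm11149 shares 417 exon bases with Ncam1 in an earlier annotation and had 1 to 127 reads per library, where Ncam1 had 3846 to 8986. How strand was counted is not given in the sources used here, so reads of the overlap cannot be told apart.

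Ncam2 varied far more than Ncam1. It had 139, 125, 59.3 and 534 normalized counts in Recurring replicates 1 to 4, against 10.4, 171, 600 and 0 in Day 0 replicates 1 to 4. The 4 Recurring libraries lay within the span of the Day 0 libraries, which held the highest value and the lowest values. Linear means were close, 214 ± 216 in Recurring and 195 ± 281 in Day 0 libraries (SD, n = 4 each). The mean log2 levels were 7.27 ± 1.31 in Recurring and 5.04 ± 4.12 in Day 0 libraries, a difference of 2.23 with a standard error of 2.23 (limma, adjusted p = 0.981). Without Day 0 replicate 4, where no read was found, the difference was 0.55, and without Day 0 replicate 3 it was 3.65. A count of 0 allows up to 3 reads in a library, for counting error only.

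Ncam1 was also set against Ncam2 within each library. On the log2 scale their ratio was 4.53, 5.68, 6.66 and 4.01 in Recurring replicates 1 to 4, against 8.83, 5.38, 2.94 and 12.87 in Day 0 replicates 1 to 4. The last value is set by the pseudocount of 1, since Ncam2 had no read there. Ncam1 exceeded Ncam2 in every library, and the Recurring ratios lay inside the wider Day 0 span. Taken at the pseudocount value, the mean ratio was 5.22 ± 1.19 in Recurring and 7.50 ± 4.32 in Day 0 libraries (SD, n = 4 each), a difference of -2.29. A 2-sided exact permutation test over all 70 assignments of the libraries gave p = 0.4, or 0.629 after Benjamini-Hochberg adjustment over this ratio and that of Cdh13 to Cdh2, in a design whose smallest possible p is 0.0286. Without Day 0 replicate 4 the difference was -0.50, and without Day 0 replicate 3 it was -3.81, while a pseudocount of 5 gave -1.63. No other single library moved it by over 1.5 times.

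Cdh2, the synaptic N-cadherin, had the most uniform Day 0 values apart from 1 library. It had 213, 173, 74.2 and 275 normalized counts in Recurring replicates 1 to 4, against 658, 717, 602 and 154 in Day 0 replicates 1 to 4. Every Recurring library lay below Day 0 replicates 1 to 3, and Day 0 replicate 4 lay below 3 of the 4 Recurring libraries, so the groups overlapped. Its mean log2 level was 7.38 ± 0.81 in Recurring and 8.84 ± 1.05 in Day 0 libraries (SD, n = 4 each). The difference was -1.46 with a standard error of 1.08 and a 95% interval of -3.73 to 0.81 (limma, adjusted p = 0.981). Without Day 0 replicate 4 it was -1.98 and still missed the threshold (limma, adjusted p = 0.991).

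Cdh10 is a type II cadherin that, with Cdh6 and Cdh9, is known in mice for a part in synaptic potentiation of CA1. It had 2353, 1045, 1425 and 1171 normalized counts in Recurring replicates 1 to 4, against 1273, 913, 1038 and 28.1 in Day 0 replicates 1 to 4. Recurring replicate 1 was the highest library, Day 0 replicate 4 lay far below all others with 28 reads, and the other 6 libraries stayed between 913 and 1425. The mean log2 level was 10.48 ± 0.52 in Recurring and 8.76 ± 2.61 in Day 0 libraries (SD, n = 4 each). This gave a difference of 1.72 with a standard error of 0.99 and a 95% interval of -0.38 to 3.82 (limma, adjusted p = 0.981). Set against its error, the difference was the largest of the 7 genes in this fit, which uses a variance trend. Without the trend Cdh2 came first, at -1.46 with a standard error of 0.79, against 1.72 with 1.27 for Cdh10. Without Day 0 replicate 4 the difference of Cdh10 was 0.42 with a standard error of 0.54.

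Cdh8, the other type II cadherin with reads in every library, had 658, 1192, 1016 and 170 normalized counts in Recurring replicates 1 to 4, against 109, 278, 1571 and 305 in Day 0 replicates 1 to 4. Recurring replicates 1 to 3 and Day 0 replicate 3 formed the high values, and the remaining 4 libraries, from both groups, the low ones. The mean log2 level was 9.25 ± 1.27 in Recurring and 8.44 ± 1.60 in Day 0 libraries (SD, n = 4 each), a difference of 0.81 with a standard error of 0.98 (limma, adjusted p = 0.997). On leaving out 1 library it ran from 0.23, without Day 0 replicate 1, to 1.53, without Day 0 replicate 3, and it was 0.74 without Day 0 replicate 4. Without Recurring replicate 2 it was 0.48, and without Recurring replicate 4 it was 1.42. The antisense gene Gm15679 shares 23 exon bases with Cdh8 and had at most 21 reads.

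Cdh24, a type II cadherin that binds catenins, was found in 4 of 8 libraries. It had 12.4, 0, 51.9 and 0 normalized counts in Recurring replicates 1 to 4, against 198, 27.1, 0 and 0 in Day 0 replicates 1 to 4. Both groups thus held 2 libraries with reads and 2 at 0, and the 266 reads of Day 0 replicate 1 were the most in any library. The log2 difference was -0.75 with a standard error of 2.13 and an interval of -5.23 to 3.74 (limma, adjusted p = 0.998). Without Day 0 replicate 3 or 4 it was -1.80 or -1.79, without Recurring replicate 2 or 4 it was 0.043 or 0.054, and on leaving out any other library the gene fell under the filter on low values.

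Cdh13, the cadherin without a cytoplasmic tail, was likewise found in some libraries only. It had 0, 238, 201 and 0 normalized counts in Recurring replicates 1 to 4, against 232, 40.7, 1.19 and 0 in Day 0 replicates 1 to 4. The highest libraries of the 2 groups were level, at 238 and 232, and each group reached 0. The log2 difference was 0.30 with a standard error of 2.56 and an interval of -5.10 to 5.69 (limma, adjusted p = 0.998). Without Recurring replicate 1 or 4 it was 1.58 or 1.59, and without Day 0 replicate 3 or 4 it was -0.54 or -0.92. The spread between libraries left the intervals of Cdh13 and Cdh24 wider than those of the other cadherins.

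Cdh13 could be set against Cdh2 within a library only where it had reads. On the log2 scale the ratio of Cdh13 to Cdh2 was 0.46 and 1.43 in Recurring replicates 2 and 3, against -1.50, -4.11 and -8.10 in Day 0 replicates 1 to 3, the last from 1 read of Cdh13. Cdh13 thus exceeded Cdh2 in 2 Recurring libraries and in no Day 0 library. In Recurring replicates 1 and 4 and Day 0 replicate 4, Cdh13 had no read and the ratio would be fixed by the pseudocount, so no mean or test of this ratio is read here.

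**Figure D2:**
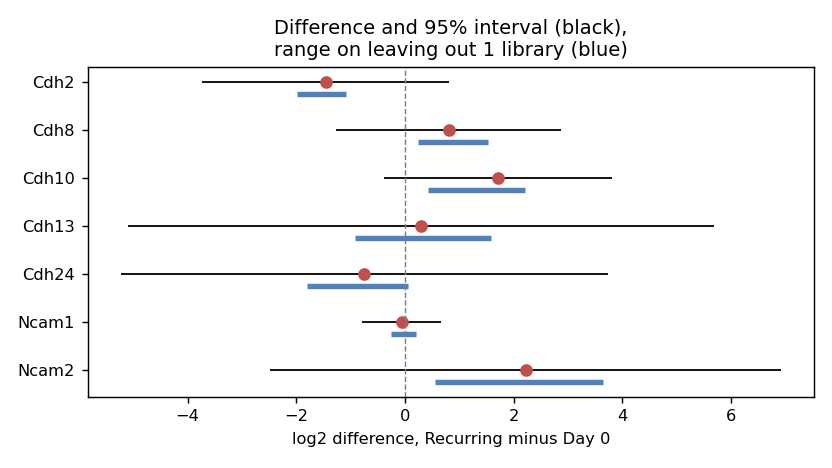
Difference in mean log2 level, Recurring minus Day 0, for each of the 7 genes. Red points are limma estimates from all 8 libraries, black lines their 95% intervals, and blue bars the range of the estimate on leaving out 1 library. All 7 intervals include 0, that of Ncam1 is the narrowest, from -0.78 to 0.67, and the blue bars of Cdh13, Cdh24 and Ncam1 reach both sides of 0.

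In the comparison of Recurring with Day 0 cells across the table, 11078 genes with a normalized count of at least 10 in 4 libraries were tested with limma. No gene passed an adjusted p of 0.05, with or without voom weights, which is 0% of those tested, and so 0 of the 7 adhesion genes did. Before adjustment, 401 genes (3.62%) had a p under 0.05, and again 0 of the 7. Group means were higher in Recurring cells for 4 of them, Cdh8, Cdh10, Cdh13 and Ncam2, and lower for 3, Cdh2, Cdh24 and Ncam1. Their median difference was 0.30 on the log2 scale, where the median over all genes tested was 0.005. Recurring and Day 0 libraries did not overlap for 2.41% of all tested genes, 1.24% higher and 1.17% lower, and for 0 of the 7. Of the 7, 4 had reads in all libraries and 3 were at 0 in at least 1, as were 45.6% of tested genes. All p values reflect the variation among 8 libraries alone, because nothing beyond the mouse numbers says that they came from separate animals.

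Precision followed abundance. The standard error of the log2 difference was 0.34 for Ncam1, 0.98 to 1.08 for Cdh8, Cdh10 and Cdh2, and 2.13 to 2.56 for Cdh24, Ncam2 and Cdh13. Over all genes tested its median was 1.78, and over the 1108 genes with the highest means it was 0.465. Without the variance trend the standard error of Ncam1 was 0.63. Those of Cdh2, Cdh8 and Cdh10 were then 0.79, 1.04 and 1.27, so among these cadherins the more abundant had the larger error.

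The 7 genes did not share 1 pattern over the libraries. Among their 21 pairs, Pearson's r of the log2 levels over the 8 libraries ran from -0.45, between Cdh10 and Ncam1, to 0.76, between Cdh10 and Ncam2, with a median of 0.039. The highest pair had a Spearman's rho of -0.024, and both of its genes were lowest in Day 0 replicate 4. These values are descriptions over 8 libraries that differ in depth.

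For each gene, the gene most like it over the 8 libraries was sought among 5492 others with reads in every library and a mean normalized count of at least 100. Cdh2 was most like Chd3, a chromatin remodeler, with an r of 0.96 and a rho of 0.93. Cdh8 was most like Zc3h4, a zinc finger protein gene, with an r of 0.94. Cdh10 was most like Asph, an aspartate hydroxylase gene, with an r of 0.99 and a rho of 0.76. Ncam1 was most like Ndufb2, a subunit of respiratory complex I, with an r of 0.99, and the libraries stood in the same order for both genes. Ncam2 was most like Smap2, which acts on Arf GTPases, Cdh13 was most like Ubfd1, and Cdh24 was most like the histone demethylase gene Kdm1a, with r between 0.92 and 0.95. Such a search returns the highest of many values, so the likeness is a description only.

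Other genes of the same adhesion systems were read from 7 lists of 77 genes, of which 62 were in the table and 50 were tested. None of the 50 passed the threshold. Group means were higher in Recurring cells for 29 and lower for 21. Before adjustment, 2 of them, Celsr2 and Alcam, or 4%, had a p under 0.05, against the 3.62% of all genes, and 2, Celsr2 and Pkp4, had Recurring and Day 0 libraries without overlap, against 2.41% of all genes.

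Among the other classical cadherins, 6 of 15 were tested, 2 with higher and 4 with lower means in Recurring cells, and their median difference was -0.15. That median ran from -0.66, without Recurring replicate 2, to 0.84, without Recurring replicate 1, and was 0.46 without Recurring replicate 3, so its sign rests on single libraries. Cdh11, a type II cadherin also known from mesenchyme, had the highest mean level of them. Its mean log2 level was 10.78 ± 0.94 in Recurring and 11.03 ± 0.14 in Day 0 libraries (SD, n = 4 each), a difference of -0.24 with a standard error of 0.50, which was 0.13 without Recurring replicate 3 and -0.58 without Recurring replicate 2. Cdh4, or R-cadherin, had the largest difference for its error in the list. It had 6.81, 500, 250 and 147 normalized counts in Recurring replicates 1 to 4, against 11.2, 0, 25.1 and 2.00 in Day 0 replicates 1 to 4. Recurring replicates 2 to 4 lay above every Day 0 library and Recurring replicate 1 below 2 of them, with a difference of 4.30 and a standard error of 2.28 (limma, adjusted p = 0.981).

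Among cadherin superfamily genes outside the classical group, 17 of 25 were tested, 8 with higher and 9 with lower means, and their median difference was -0.090. The median was 0.17 in the deposited values as they stand and ran from -0.27, without Day 0 replicate 3, to 0.50, without Day 0 replicate 4. Pcdh9, a protocadherin, had the highest mean level, with a difference of 0.59 and a standard error of 0.55, and ran from 0.29, without Day 0 replicate 2, to 1.12, without Day 0 replicate 3. Celsr2, a flamingo-type cadherin of planar cell polarity, had 946, 369, 1193 and 1287 normalized counts in Recurring replicates 1 to 4, against 1491, 2154, 3774 and 3850 in Day 0 replicates 1 to 4. Every Recurring library lay below every Day 0 library. The difference was -1.61 with a standard error of 0.56 and did not pass the threshold once adjusted over all genes (limma, adjusted p = 0.981).

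Catenins and other linkers of adherens junctions had higher means in Recurring cells for all 8 genes tested of 12 listed, and none passed the test. Their median difference was 1.04 on the log2 scale, where all tested genes had 0.005 and 50.1% of genes had higher means. All 8 stayed higher under both other size factors and in the deposited values as they stand, and on leaving out 1 library 6 to 8 of the 8 did. The median was 0.69 without Day 0 replicate 3, 1.37 without Recurring replicate 4, and 0.70 over the 5 genes with 10 normalized counts in all 8 libraries. Marker lists of other cells differed in both directions. The mean log2 level of astrocyte markers was 7.61 ± 1.44 in Recurring and 4.87 ± 1.49 in Day 0 libraries (SD, n = 4 each). Microglial markers had 6.41 ± 2.74 in Recurring and 3.10 ± 1.27 in Day 0 libraries, and interneuron and precursor markers were also higher in Recurring libraries. Oligodendrocyte markers, at 6.17 ± 1.70 in Recurring and 6.42 ± 2.36 in Day 0 libraries, and endothelial markers, at 1.81 ± 1.24 and 2.67 ± 0.27, were lower. The part of other cells in the catenin differences was not tested. The difference exceeded its standard error for 4 of the 8 genes and was below it for 4, such as 0.16 with a standard error of 0.84 for Ctnnb1, the beta-catenin that binds cadherin tails and is named here after its value was seen. Ctnnd2, the neuronal delta-catenin, had both the highest mean level and the largest difference for its error, with a mean log2 level of 11.40 ± 0.38 in Recurring and 10.70 ± 0.40 in Day 0 libraries (SD, n = 4 each) and a difference of 0.70 (limma, adjusted p = 0.981). Pkp4, an armadillo protein of the same family that was picked out after its values were seen, had 1585 to 2682 normalized counts in Recurring and 659 to 1453 in Day 0 libraries, without overlap, and its difference of 0.73 was 0.46 without Day 0 replicate 4.

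**Figure D3:**
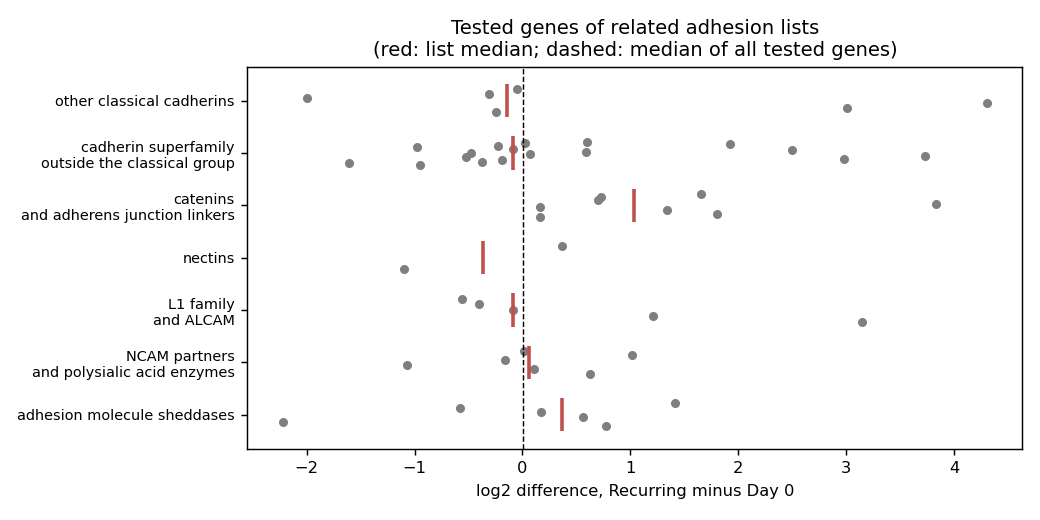
Difference in mean log2 level, Recurring minus Day 0, of the 50 tested genes in 7 lists of related adhesion genes, with 1 grey point per gene. Red bars mark the median of each list and the dashed line the median of all tested genes, 0.005. The catenins and linkers lie to the right of the line with a median of 1.04, and no point stands for a gene that passed the test.

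In the L1 family with Alcam, relatives of Ncam1 in the immunoglobulin superfamily, 5 of 5 genes were tested, 2 with higher and 3 with lower means, and the median difference was -0.089. The median was 0.011 in the deposited values as they stand and ran from -0.64, without Recurring replicate 1, to 0.29, without Recurring replicate 2. Nfasc, or neurofascin of the axon initial segment, had the highest mean level, with a difference of -0.40 and a standard error of 0.45, and ran from -0.78, without Recurring replicate 1, to -0.15, without Day 0 replicate 3. Alcam had 796, 6953, 1183 and 636 normalized counts in Recurring replicates 1 to 4, against 953, 523, 135 and 9.02 in Day 0 replicates 1 to 4. Recurring replicate 2 was far above the rest, and Day 0 replicate 1 lay above 2 Recurring libraries. The difference was 3.15 with a standard error of 1.24 (limma, adjusted p = 0.981), and it was 1.81 without Day 0 replicate 4.

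Genes that act on NCAM or cut adhesion molecules did not separate the groups either. Of 10 NCAM partners and polysialic acid enzymes 6 were tested, 4 with higher and 2 with lower means. All 6 were partners, and the polysialic acid enzymes were not tested. The median difference was 0.064 and ran from -0.10, without Day 0 replicate 4, to 0.32, without Recurring replicate 4. Prnp, the prion protein that binds NCAM, differed by -0.16 with a standard error of 0.31, and Ptpra, a receptor phosphatase that joins NCAM to Fyn, by 1.01 with 0.84. Without Day 0 replicate 2 Prnp differed by 0.011, and without Recurring replicate 2 Ptpra differed by 0.52. Of 6 sheddases 4 had higher and 2 lower means, with a median of 0.37, which was -0.21 without Day 0 replicate 3, 0.042 without Day 0 replicate 1 and 0.70 without Recurring replicate 4. The protease gene Adam17, which sheds adhesion molecules from the membrane, differed by -2.22 with a standard error of 1.77, or by -0.044 without Recurring replicate 1. The nectins gave 2 tested genes of 4, Nectin3 at 0.37 with a standard error of 2.51 and Nectin1 at -1.10 with 2.37, and a list median of -0.37. That median was 1.20 without Recurring replicate 1 and -1.78 without Recurring replicate 2.

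Other cell types of the hippocampus also express cadherins and NCAM, so their markers were read in the same libraries. The mean log2 level of 8 astrocyte markers, of 9 listed, was 6.13 to 9.36 in Recurring and 2.73 to 6.20 in Day 0 libraries, and their summed level was 2296 to 13248 normalized counts in Recurring and 1416 to 2590 in Day 0 libraries. Recurring replicate 1 had the highest astrocyte level, and it was also the highest in Cdh10 and the lowest in Ncam1. The 5 microglial markers in the table, of 7, had a mean log2 level of 3.45 to 9.93 in Recurring and 1.55 to 4.64 in Day 0 libraries. Recurring replicate 4 was the highest there as well as in Ncam1. Tmem119, a defining microglial gene, was at 0 in all 4 Day 0 libraries.

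Interneuron markers, 7 of 9 in the table, had a mean log2 level of 1.97 to 8.17 in Recurring and 0.98 to 5.82 in Day 0 libraries, with Recurring replicate 2 highest, the library that also held the most Alcam and Cdh4. Oligodendrocyte markers, 7 of 7 in the table, stood at 4.77 to 8.62 in Recurring and 2.99 to 8.36 in Day 0 libraries. Precursor markers, 3 of 6, stood at 2.87 to 6.31 in Recurring and 0 to 4.10 in Day 0 libraries. Vascular markers were low in both, with the 4 endothelial markers of 5 at 0 to 2.75 in Recurring and 2.32 to 2.98 in Day 0 libraries. Markers of other excitatory hippocampal cells, 4 of 7, stood at 4.25 to 5.28 in Recurring and 2.45 to 7.17 in Day 0 libraries. The part of other cells in the differences of the 7 genes was not tested. In such bulk libraries, fewer cells of a type and less RNA per cell cannot be told apart.

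**Figure D4:**
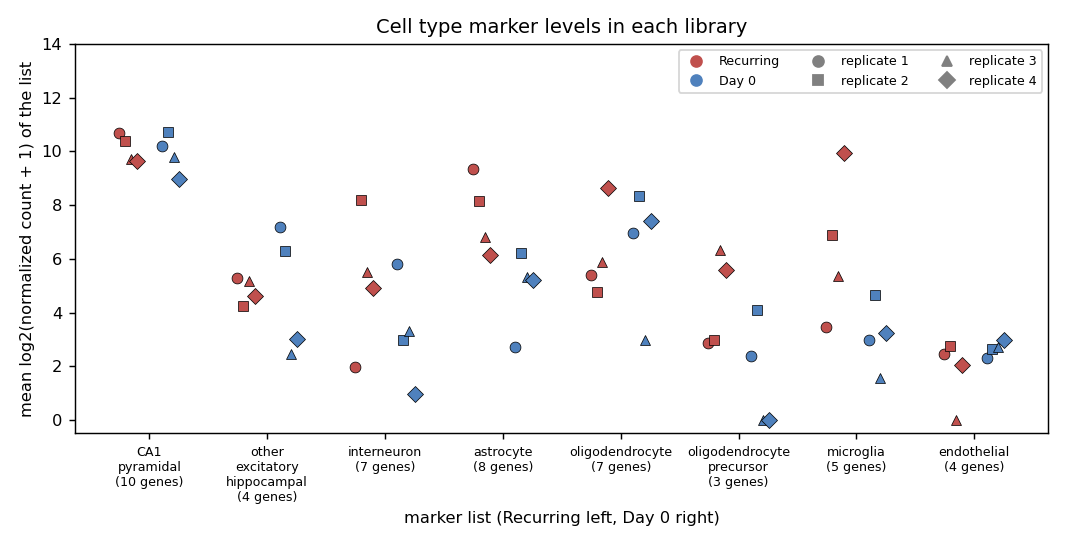
Mean log2 level of the markers of 8 cell types in each library, with Recurring libraries in red and Day 0 libraries in blue and the number of markers in the table under each name. CA1 pyramidal markers lie between 8.96 and 10.71 in all libraries, while astrocyte markers reach 9.36 in Recurring replicate 1 and microglial markers 9.93 in Recurring replicate 4.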

How the data were processed

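The libraries were nuclear RNA prepared with a SMART-Seq mRNA kit, and the submitters' processing notes name STAR, HTSeq and the build GRCm39, without versions. The deposited values are a signal per gene and library that the authors scaled gene by gene, with no log transform. They hold no correction for library depth, so whole reads were recovered by dividing out each gene's constant, within 0.1 read, for all 15519 genes. Depth was then corrected with size factors taken as the median of ratios. The test was that of limma (version 3.58.1, R 4.3.3) on log2(normalized count + 1), using its variance trend and adjusting by Benjamini-Hochberg over the 11078 genes that reached 10 normalized counts in 4 libraries. Fold changes are on that scale, where those of low genes depend on the pseudocount in either direction. With pseudocounts of 0.5 and 5 the log2 difference was 2.49 and 1.58 for Ncam2, and 0.14 and 0.48 for Cdh13. Ratios were compared by exact permutation with scipy 1.17.1. Exon lengths came from GENCODE vM21, of an earlier build than the authors', and served only the levels per kilobase. Groups followed the labels, and replicates were numbered in deposit order.

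The members and lists were chosen with earlier results of these data known. Text names all 7 members, the gene of highest mean and of smallest p in each related list, the gene most like each member, and 3 CA1 markers. A gene that this rule takes is not reported here. Alternatives changed size factors, pseudocount, filter, variance model and libraries. Fits with voom and with the Xist pattern as a term were added after the data were seen. Negative binomial fits to the recovered reads had been planned and were not run, because the deposited unit is not a count.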

Additional observations from a re-analysis of the deposited data

Results flagged for a closer look

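In 18 groups of 4 libraries, covering the log2 level of each of the 7 genes and both ratios in Recurring and in Day 0 cells, 2 held a library far from the other 3. Chance alone marks about 1 in 20 such groups. Both came from the same library, Day 0 replicate 4. Its log2 level of Cdh2 was 7.28, where the other Day 0 libraries had 9.24 to 9.49, and the gap to the nearest took up 0.886 of the group's range. Its log2 level of Cdh10 was 4.86, where the others had 9.84 to 10.32, with a gap of 0.912 of the range. No Recurring library stood apart in this way. Day 0 replicate 4 also had the fewest genes detected, 10718, and its part in these values was not tested further than by leaving it out.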

How the results depend on the processing

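Over 18 alternative settings the 7 genes gave 115 differences, of which 106 kept the direction reported, 9 reversed and 0 passed the adjusted threshold, the lowest adjusted p from limma being 0.907. No gene of the table was called under any setting but limma without a variance trend, which called 2 and neither among the 7. Those were A130010J15Rik, with a difference of 7.60, and Gm47033, with -8.61 (limma, adjusted p = 0.0300 for both). Ncam1 turned to 0.044 in the deposited values as they stand, and Cdh13 to -0.092 with voom. On leaving out 1 library the differences ran from -1.98 to -1.08 for Cdh2, 0.23 to 1.53 for Cdh8, 0.42 to 2.22 for Cdh10, -0.92 to 1.59 for Cdh13, -1.80 to 0.054 for Cdh24, -0.25 to 0.20 for Ncam1 and 0.55 to 3.65 for Ncam2. The difference in the log2 ratio of Ncam1 to Ncam2, Recurring minus Day 0, ran from -3.81 to -0.50. That in the ratio of Cdh13 to Cdh2 ran from 0.12 to 3.30, but the pseudocount sets 3 of 8 values and it is not read as a result. The count of genes called was 0 on leaving out any 1 library. Cdh13 and Cdh24 could be fitted in 4 of these 8 settings, and Cdh13, Cdh24 and Ncam2 were not tested where 10 normalized counts were required in all 8 libraries.

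No paired analysis was possible because replicate numbers follow deposit order and each title names a different mouse. With 4 libraries a group and standard errors of 0.34 to 2.56, intervals for the 6 genes other than Ncam1 reach at least 17.8-fold from end to end, and the labels give no batch to check.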
